A study of Mus musculus with 15 samples.

Results

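The 7 genes described here encode the main machinery of MHC class II antigen presentation in the mouse: the chains H2-Aa, H2-Ab1 and H2-Eb1, the invariant chain Cd74, the peptide exchange factor subunits H2-DMa and H2-DMb1, and the coactivator Ciita. They were taken by name from the 39179 genes in the count tables, and all 7 were among the 14304 genes with enough reads to test. The RNA came from submandibular glands, which are major salivary glands, of C57BL/6 males of adult age, and the 15 libraries fall into 5 groups of 3. In the 3 transfer groups, glands were taken 7 days after local irradiation (IR) and had received an intraglandular transfer of Shh (IR+Shh), Gli1 (IR+Gli1) or GFP (IR+GFP), the last being the control for the transfer. Glands of the IR group were wild type and were taken 7 days after local irradiation with no transfer, and those of the NT group were wild type and untreated. Hedgehog signalling starts with secreted ligands such as Shh and ends at GLI transcription factors, Gli1 among them, which switch on target genes. The labels name no vector and no dose, and they do not say from which species the transferred genes came.

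MHC class II molecules present peptides from endosomes to CD4+ T cells. They are made constitutively by dendritic cells, B cells and some macrophages, and interferon gamma can induce them in other cells, salivary epithelium included, through IRF1 and the coactivator CIITA. CIITA does not bind DNA itself: it is recruited by the RFX, CREB and NF-Y factors that occupy the X and Y boxes of class II promoters. C57BL/6 mice carry a defective H2-Ea gene, so that their H2-Eb1 chain has no partner and no I-E molecule reaches the cell surface.

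In each group, 2 of the 3 libraries were so alike that they differed by less than sampling noise (mean chi-square per gene 0.215 to 0.337, against 22.0 to 223 in the other pairs), and each such pair was counted as 1 sample, leaving n = 2 per group. Libraries held 18205941 to 41064723 gene reads. Levels are CPM, read counts relative to library size, scaled by TMM, a method that sets library sizes so that most genes keep their level. The TMM factors were 1.72 and 1.31 in the samples labelled IR+Gli1 and 0.866 to 0.994 in the others, so the scaling matters for that group. Leaving the factors out moved the median log2 fold change of all genes by 0.79 in IR+Gli1 against IR+GFP, by 0.15 in IR+Shh against IR+GFP and by -0.65 in IR+Shh against IR+Gli1. The labels name no animals, and p-values therefore describe the scatter among these samples, which may be technical. The 2 against 2 design allows no exact two-sided permutation p below 0.333, so tests come from a model fitted across all genes.

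On the TMM scale, reads of the mouse genes Shh and Gli1 did not follow the labels. Mouse Shh had 0 reads in all 15 libraries, IR+Shh included. Gli1 stood at 2.73 and 4.24 CPM in IR+Shh, at 0.558 and 0.672 CPM in the samples labelled IR+Gli1 and at 0.809 and 0.554 CPM in IR+GFP. Its level in the samples labelled IR+Gli1 was thus not above IR+GFP on this scale (log2 fold change -0.18, edgeR quasi-likelihood test, Benjamini-Hochberg adjusted p = 0.801). Without TMM factors it was 0.878 to 0.962 CPM in the libraries labelled IR+Gli1, against 0.490 to 0.747 CPM in IR+GFP. The log2 fold change of Gli1 in IR+Shh was 2.33 against IR+GFP and 2.51 against IR+Gli1. Only the value against IR+Gli1 passed (edgeR quasi-likelihood test, Benjamini-Hochberg adjusted p = 0.354 and 0.00859). Every direction given below for IR+Gli1 rests on that label.

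The H2 genes of the 7 lie together in the class II region of chromosome 17, between the start of H2-DMa at base 34119541 and the end of H2-Eb1 at base 34316674 of GRCm38. Ciita is on chromosome 16. Promoter windows of 300 bases, from 250 before to 50 after the start, were at hand in RefSeq (GRCm38.p6) for 4 of the 7 members: H2-Aa, H2-Eb1, H2-DMa and H2-DMb1. The windows were searched on both strands for the letters GNAAC, the core of the X box, followed after 15 to 30 bases by TGATTGG, the Y box. This arrangement was present in 154 of 32851 windows (0.469%), and TGATTGG alone in 7.82%. H2-Aa, H2-Eb1 and H2-DMb1 held it, with the first base of GNAAC 81, 91 and 94 bases before the start and 26, 25 and 26 bases between the motifs. Neither of the 2 windows of H2-DMa held it. Sequences are shown for H2-Aa and H2-Eb1, the I-A and I-E chains with a window, whose levels are compared below, and for H2-Ob, a subunit of the H2-DM inhibitor H2-O, which holds the same arrangement with 23 bases between the motifs. Each runs from 110 to 31 bases before the start, 5′ to 3′ on the strand of the gene, and capitals mark the motifs.
H2-Aa, chr17:34287854-34287933, minus strand: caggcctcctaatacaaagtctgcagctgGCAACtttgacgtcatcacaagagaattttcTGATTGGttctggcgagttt
H2-Eb1, chr17:34305757-34305836, plus strand: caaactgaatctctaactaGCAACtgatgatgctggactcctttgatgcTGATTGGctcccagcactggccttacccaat
H2-Ob, chr17:34238795-34238874, plus strand: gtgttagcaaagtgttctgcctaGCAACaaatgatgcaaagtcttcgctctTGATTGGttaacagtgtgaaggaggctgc
The search fixed every letter of the motifs except the N of GNAAC, which was C in all 3 genes. Levels of the 3 genes were far apart: H2-Ob had 2 to 8 reads in each of the 15 libraries. A match of letters describes the window and does not show that a factor binds there.

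The 7 genes summed to 417 to 596 CPM in the samples labelled IR+Gli1, the highest sums of the series, and to at most 395 CPM in any other group. Not all 7 differed alike. Against IR+GFP, 4 of the 7 members rose and 0 fell: both H2-DM subunits by 2.90-fold and 3.14-fold, H2-Ab1 by 2.45-fold and Cd74 by 2.04-fold. H2-Aa, Ciita and H2-Eb1 did not pass the test. Of all genes tested, 14% passed in either direction, 8.33% as higher and 5.71% as lower. The median log2 fold change of the 7 members was 1.03, against 0.0043 over all genes. Both IR+Gli1 samples lay above both IR+GFP samples for 6 of the 7 members, a pattern that 28.9% of all genes showed. In bulk tissue, more cells of a kind and more RNA per cell cannot be told apart.

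**Figure D1:**
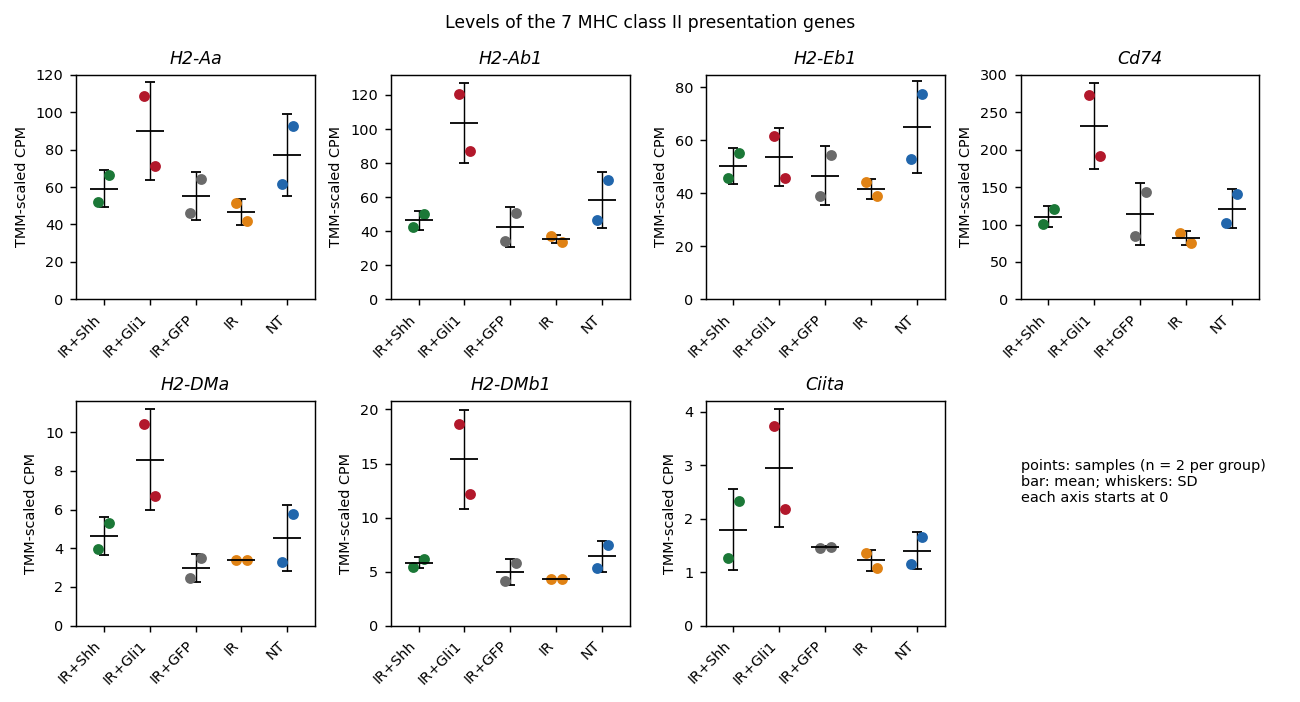
Level of each of the 7 genes in TMM-scaled CPM (vertical axis, linear, from 0) in the 5 groups; points are samples (n = 2 per group), bars are means and whiskers SD. The IR+Gli1 points lie highest for H2-Ab1, Cd74, H2-DMa and H2-DMb1, while those of H2-Eb1 (61.4 and 45.8 CPM) lie among the other groups.

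H2-Ab1 encodes the beta chain of I-A, the class II molecule that C57BL/6 mice express. It had 42.5 and 50.3 CPM in IR+Shh, 120.3 and 86.9 CPM in the samples labelled IR+Gli1 and 34.4 and 50.6 CPM in IR+GFP, the combined pair being given first in every group. It had 37.3 and 33.6 CPM in IR, against 70.2 and 46.8 CPM in NT. Both samples labelled IR+Gli1 lay above all 8 others, a pattern whose share over all genes was not computed. The log2 fold change of IR+Gli1 against IR+GFP was 1.29 ± 0.26 (SE; edgeR quasi-likelihood test, Benjamini-Hochberg adjusted p = 0.0157).

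H2-Aa encodes the alpha chain that pairs with H2-Ab1. Its level was 52.1 and 66.4 CPM in IR+Shh, 109 and 71.4 CPM in the samples labelled IR+Gli1 and 46.2 and 64.3 CPM in IR+GFP. It was 51.7 and 42.0 CPM in IR, against 92.7 and 61.6 CPM in NT. The IR+Gli1 samples lay above those of IR+GFP but not above both NT samples. The log2 fold change against IR+GFP was 0.71 ± 0.28 (SE; 95% interval 0.054 to 1.36) and did not pass (edgeR quasi-likelihood test, Benjamini-Hochberg adjusted p = 0.140).

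H2-Eb1 encodes the beta chain of I-E. It was at 45.6 and 55.2 CPM in IR+Shh, 61.4 and 45.8 CPM in the samples labelled IR+Gli1 and 38.8 and 54.4 CPM in IR+GFP. It was at 44.2 and 38.8 CPM in IR, against 77.3 and 52.8 CPM in NT. The groups overlapped, and the highest value was that of the combined NT sample. The log2 fold change of IR+Gli1 against IR+GFP was 0.21 ± 0.24 (SE; 95% interval -0.33 to 0.75; edgeR quasi-likelihood test, Benjamini-Hochberg adjusted p = 0.626), and its sign turned when the combined sample of either group was left out (-0.023 without IR+GFP 1 and 2, -0.035 without IR+Gli1 1 and 2).

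Cd74, the invariant chain that occupies the peptide groove and guides class II molecules to endosomes, was the most abundant member per length of exon; its gene is on chromosome 18. It had 100.4 and 120.6 CPM in IR+Shh, 273 and 192 CPM in the samples labelled IR+Gli1 and 85.1 and 143 CPM in IR+GFP. It had 88.7 and 74.9 CPM in IR, against 140.2 and 103 CPM in NT. Both samples labelled IR+Gli1 lay above all others, a pattern whose share over all genes was not computed. The IR+GFP samples were farther apart than those of IR or NT. The log2 fold change of IR+Gli1 against IR+GFP was 1.03 ± 0.28 (SE; edgeR quasi-likelihood test, Benjamini-Hochberg adjusted p = 0.0466); with limma-voom the Benjamini-Hochberg adjusted p was 0.0549.

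H2-DMa and H2-DMb1 form H2-DM, which exchanges the invariant chain remnant for antigenic peptide in endosomes. H2-DMb1 had 5.46 and 6.16 CPM in IR+Shh, 18.6 and 12.1 CPM in the samples labelled IR+Gli1 and 4.13 and 5.79 CPM in IR+GFP. It had 4.31 and 4.28 CPM in IR, against 7.44 and 5.37 CPM in NT. It was the member with the smallest adjusted p: both samples labelled IR+Gli1 lay above all 8 others, at a log2 fold change against IR+GFP of 1.65 ± 0.26 (SE; edgeR quasi-likelihood test, Benjamini-Hochberg adjusted p = 0.00555). H2-DMa had 3.94 and 5.31 CPM in IR+Shh, 10.4 and 6.72 CPM in the samples labelled IR+Gli1 and 2.47 and 3.51 CPM in IR+GFP. It had 3.39 and 3.41 CPM in IR, against 5.75 and 3.31 CPM in NT. Its samples labelled IR+Gli1 again lay above all others, with a log2 fold change against IR+GFP of 1.54 ± 0.33 (SE; edgeR quasi-likelihood test, Benjamini-Hochberg adjusted p = 0.0164). For neither subunit was the share of all genes that lay above all others computed. H2-DMb1 has a close copy, H2-DMb2, and reads with several alignments were not counted, so the split between the copies is uncertain. H2-DMb2 had 11 to 30 reads in the IR+Gli1 libraries, against 3 to 5 in those of IR+GFP, and its log2 fold change of 0.89 did not pass (edgeR quasi-likelihood test, Benjamini-Hochberg adjusted p = 0.277). Of the exon bases of H2-DMa, 10.4% are shared with Brd2, whose log2 fold change was 0.13 in the same comparison.

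Ciita, the coactivator that switches on class II genes, was the scarcest member, with 20 to 207 reads per sample. It had 1.26 and 2.32 CPM in IR+Shh, 3.73 and 2.17 CPM in the samples labelled IR+Gli1 and 1.45 and 1.48 CPM in IR+GFP. It had 1.36 and 1.08 CPM in IR, against 1.65 and 1.15 CPM in NT. The higher IR+Shh sample lay between those labelled IR+Gli1, and both samples labelled IR+Gli1 lay above IR+GFP. The log2 fold change of IR+Gli1 against IR+GFP was 1.03 ± 0.38 (SE; 95% interval 0.17 to 1.88; edgeR quasi-likelihood test, Benjamini-Hochberg adjusted p = 0.107). Ciita had nearly the same log2 fold change as Cd74 with a wider error. It shares 3.45% of its exon bases with Dexi, whose log2 fold change was 0.12.

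**Figure D2:**
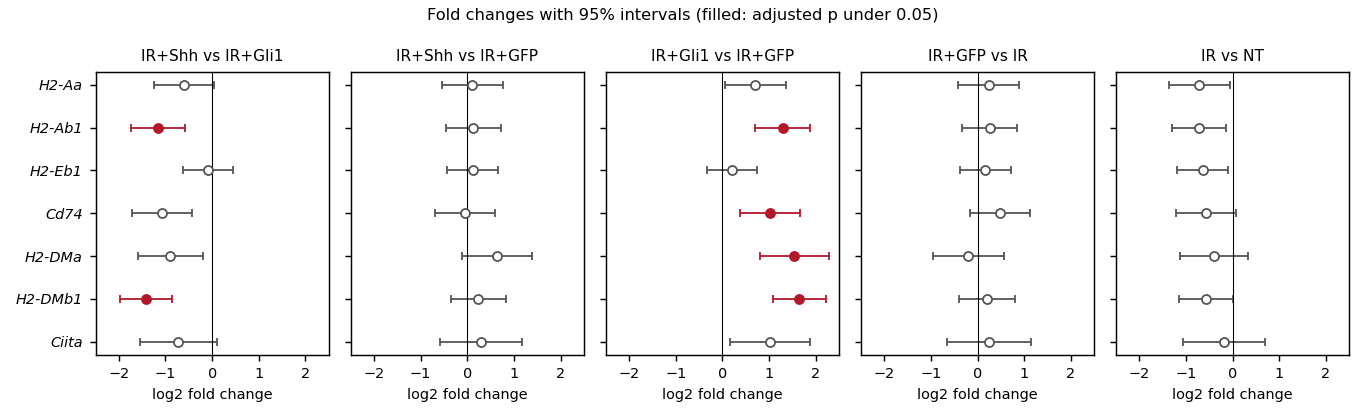
Log2 fold change (horizontal axis) of each gene in the 5 comparisons, first group over second, with 95% intervals of the edgeR fit; filled red points passed the adjusted threshold of 0.05. The 4 genes that passed in IR+Gli1 against IR+GFP lie between 1.03 and 1.65, and 2 genes passed in IR+Shh against IR+Gli1.

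These 4 calls rest on few samples. A fit of the compared groups alone passed 0 members and 1 gene in all. Leaving out a combined sample leaves 1 sample in its group. The median log2 fold change of the members was then 1.01 without IR+GFP 1 and 2 and 0.74 without IR+Gli1 1 and 2. Without TMM factors all 7 members passed as higher, as did 67.5% of all genes.

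Per kilobase of exon, Cd74 came first in every group. The length used was that of all annotated exons of a gene together, which can exceed that of the RNA expressed. It was 3798 bases for H2-Aa and 3448 for H2-DMa, against 1679 for Cd74 and 1681 for H2-DMb1. The order between genes therefore depends on the annotation. In the samples labelled IR+Gli1, Cd74 was at 138 ± 34.2 CPM per kb (SD, n = 2), H2-Ab1 at 40.3 ± 9.19, H2-Eb1 at 27.6 ± 5.70 and H2-Aa at 23.7 ± 6.93 CPM per kb. H2-DMb1 followed at 9.16 ± 2.74, H2-DMa at 2.48 ± 0.757 and Ciita at 0.310 ± 0.115 CPM per kb. H2-Eb1 and H2-Aa were the neighbours in this order whose samples overlapped. In IR+GFP, the order of the I-A and I-E chains was another: H2-Eb1 was at 24.0 ± 5.68 CPM per kb, H2-Ab1 at 16.5 ± 4.47 and H2-Aa at 14.6 ± 3.37 CPM per kb. The mean of H2-Eb1 was above that of H2-Ab1 in IR+Shh, IR and NT as well, so H2-Ab1 exceeded H2-Eb1 only in the samples labelled IR+Gli1.

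Ratios of reads within a sample need no scaling between libraries and show the same shift. This pattern was noticed in the levels, so its values are a description with no test. H2-Ab1 had 1.90 to 1.96 reads per read of H2-Eb1 in the 2 samples labelled IR+Gli1, against 0.843 to 0.933 in the 8 others. H2-Aa had 1.56 to 1.77 reads per H2-Eb1 read in those samples, against 1.08 to 1.20 in the others. Both I-A chains thus stood higher relative to the I-E chain in that group. For Cd74 the ratio was 4.19 to 4.44 in the samples labelled IR+Gli1, against 1.81 to 2.63 in the others. For H2-DMb1 it was 0.265 to 0.303, against 0.0962 to 0.12, and for H2-DMa 0.147 to 0.169, against 0.0626 to 0.0963. For Ciita, with the fewest reads, it was 0.0475 to 0.0607 in the samples labelled IR+Gli1, against 0.0213 to 0.0421 in the others. The ranges did not overlap for any of the 6 genes. All 6 ratios share 1 denominator, H2-Eb1, the member with the lowest log2 fold change against IR+GFP (0.21), so they are not separate observations. The share of all genes with such a pattern was not computed.

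**Figure D3:**
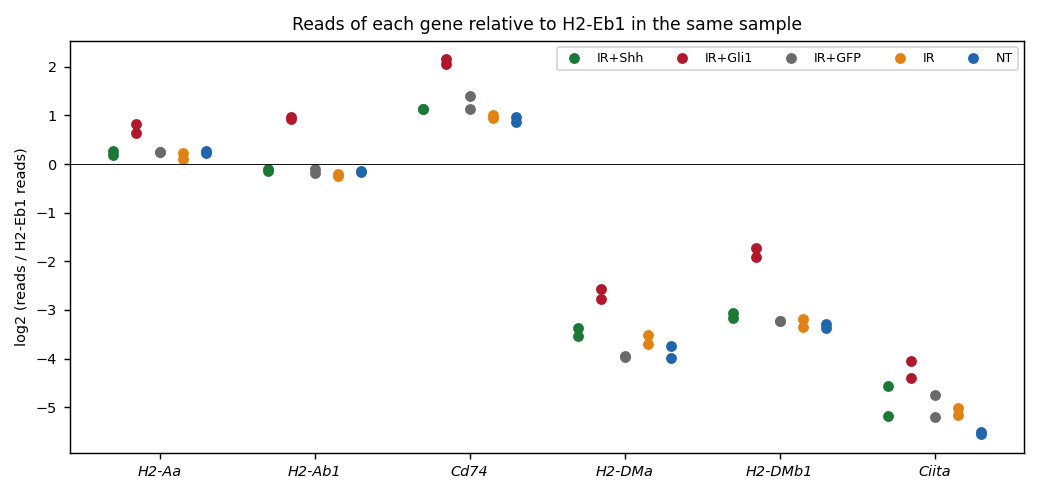
Reads of 6 genes divided by the H2-Eb1 reads of the same sample, on a log2 axis; each point is 1 of 10 samples, coloured by group. The red IR+Gli1 points lie above all others for each gene, for H2-Ab1 at ratios of 1.90 to 1.96 against 0.843 to 0.933.

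None of the other class II chain genes passed. H2-Oa, the alpha chain of the H2-DM inhibitor H2-O, had a log2 fold change of -1.21 in IR+Gli1 against IR+GFP that did not pass (edgeR quasi-likelihood test, Benjamini-Hochberg adjusted p = 0.104), with 11 to 25 reads in the libraries labelled IR+Gli1 and 16 to 25 in those of IR+GFP. H2-Eb2 had 0 to 7 reads per library and was not tested, nor was H2-Ob. H2-Ea-ps, the defective alpha chain gene, had 0 reads in all 15 libraries. The 7 genes for the X and Y box factors (Rfx5, Rfxank, Rfxap, Nfya, Nfyb, Nfyc and Creb1) passed in 0 cases in each of the 5 comparisons, and their median log2 fold change in IR+Gli1 against IR+GFP was 0.12.

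Genes upstream of Ciita and genes of endosomal processing moved in the same comparison. Of 7 genes on the interferon gamma route to Ciita, 5 rose in IR+Gli1 against IR+GFP and 1 fell, with a median log2 fold change of 0.93. Of all genes tested, 8.33% passed as higher and 5.71% as lower. Irf1, a transcription factor that acts at Ciita, was at 66.2 and 29.9 CPM in the samples labelled IR+Gli1, against 9.50 and 11.6 CPM in IR+GFP. Both IR+Gli1 samples thus lay above both IR+GFP samples, as they did for 28.9% of all genes. The log2 fold change of Irf1 was 2.20 (edgeR quasi-likelihood test, Benjamini-Hochberg adjusted p = 0.00877). The receptor chains Ifngr1 and Ifngr2 rose by 0.78 and 0.93 on the log2 scale. Named after their values were seen, Jak2 rose by 0.44 and Jak1, the other receptor kinase, fell by 0.36 on the log2 scale, but Jak1 turned to a rise of 0.42 without TMM factors. Interferon gamma itself, Ifng, had 35, 26 and 8 reads in the libraries labelled IR+Gli1, against 0, 0 and 1 in IR+GFP; it too met the filter only through the samples labelled IR+Gli1, and it did not pass (edgeR quasi-likelihood test, Benjamini-Hochberg adjusted p = 0.0526).

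Of 6 genes of endosomal processing, 5 rose in IR+Gli1 against IR+GFP and 0 fell, with a median log2 fold change of 1.16. The shares over all genes tested were 8.33% higher and 5.71% lower. Ctss, the cathepsin that degrades the invariant chain in antigen-presenting cells, was at 150.0 and 92.3 CPM in the samples labelled IR+Gli1, against 24.8 and 33.5 CPM in IR+GFP. Lgmn, the asparagine endopeptidase, was at 88.1 and 56.1 CPM, against 9.29 and 16.3 CPM in IR+GFP. For both genes the IR+Gli1 samples lay above those of IR+GFP, as they did for 28.9% of all genes. Log2 fold changes were 2.06 for Ctss and 2.52 for Lgmn (edgeR quasi-likelihood test, Benjamini-Hochberg adjusted p = 0.00292 and 0.00290). The cathepsins Ctsb and Ctsl rose by 1.01 and 0.77 on the log2 scale and Ifi30, the lysosomal thiol reductase, by 1.30. The sixth gene, Ctsd, had a log2 fold change of 0.22 and did not pass. Of 6 genes of costimulation and class II turnover, March1, a ubiquitin ligase that removes class II from the surface, rose by 2.04 on the log2 scale. Lag3, a class II receptor on T cells, and Cd40, a costimulatory receptor, passed as higher too, but they met the low-count filter only through the samples labelled IR+Gli1, where they are high, and their calls carry no weight. Lag3 had 29 to 120 reads in the libraries labelled IR+Gli1, against 4 to 5 in IR+GFP, and Cd40 had 25 to 226 reads, against 2 to 8. In a fit of the compared groups alone, 0 genes of these 3 lists passed, against 1 of all genes tested. Leaving out IR+GFP 1 and 2 leaves 1 sample in that group. Median log2 fold changes were then 0.63 (interferon gamma route) and 1.15 (endosomal processing).

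**Figure D4:**
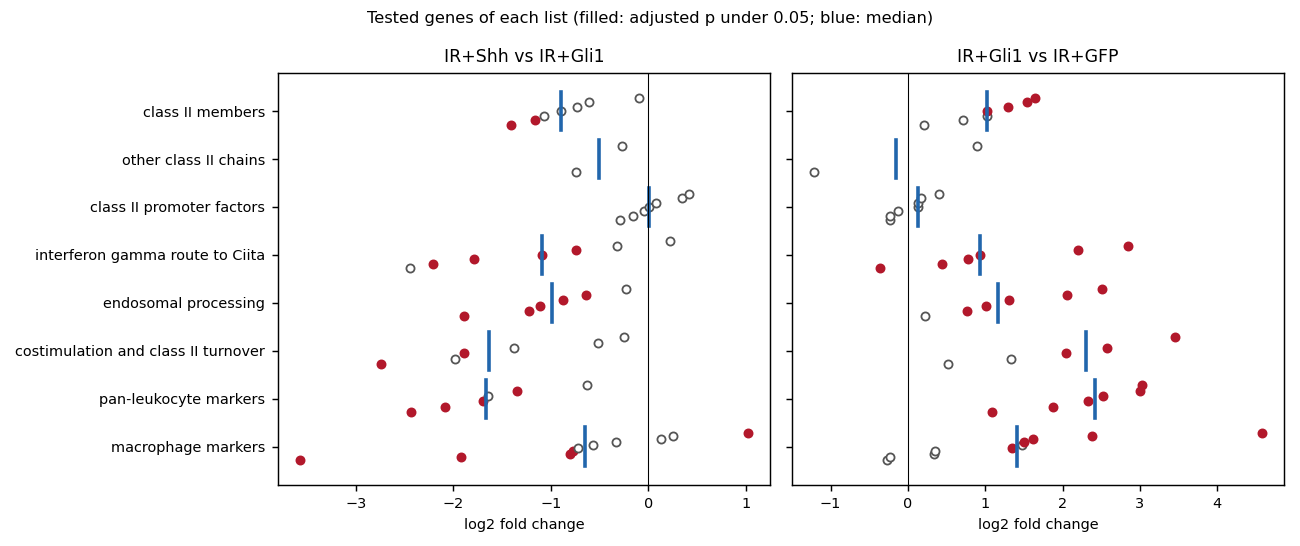
Log2 fold change (horizontal axis) of the tested genes of 8 lists in IR+Shh against IR+Gli1 (left) and IR+Gli1 against IR+GFP (right); filled points passed the adjusted threshold of 0.05, and blue bars mark the median of the tested genes. Genes with 3 reads or fewer in either group are not drawn. On the right, the pan-leukocyte genes have a median of 2.42 and the promoter factors one of 0.12. The lists of the interferon gamma route and of costimulation include genes tested only through the samples labelled IR+Gli1, and their medians hold these genes.

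Pan-leukocyte genes and part of the macrophage genes were also higher in the samples labelled IR+Gli1. Over all genes tested, 8.33% passed as higher and 5.71% as lower against IR+GFP, with a median log2 fold change of 0.0043. All 6 pan-leukocyte genes rose against IR+GFP (median log2 fold change 2.42), among them Itgb2, Tyrobp, Coro1a and Cd53, and their summed level was 110.1 to 206 CPM in IR+Gli1, against 30.5 to 47.6 CPM in IR+GFP. Of 10 macrophage genes, 5 passed as higher, among them the complement genes C1qa, C1qb and C1qc and the lysosomal marker Cd68, and 0 as lower. The 10 genes had a median log2 fold change of 1.41, with 2 below 0. Their summed level was 277 to 289 CPM in IR+Gli1, against 99.1 to 143 CPM in IR+GFP. Mrc1 and Mertk had lower means in IR+Gli1 (5.28 and 16.6 CPM) than in IR+GFP (6.18 and 19.9 CPM). Without IR+GFP 1 and 2, which leaves 1 sample in that group, median log2 fold changes were 2.05 (pan-leukocyte) and 1.08 (macrophage). With the compared groups alone, 0 genes of either list passed, against 1 of all genes tested. Of 6 tested dendritic cell genes out of 9, Itgax, an integrin subunit that macrophages can also carry, rose by 1.84 on the log2 scale, and Cd209a fell, with 0 reads in all 3 libraries labelled IR+Gli1 against 6 to 9 in those of IR+GFP. The 6 tested genes had a median log2 fold change of -0.15, with 3 below 0. The summed dendritic cell level was 17.7 to 18.5 CPM in IR+Gli1, against 5.45 to 10.2 CPM in IR+GFP, and most of it was Itgax, at 14.6 and 14.9 CPM in IR+Gli1, against 2.51 and 5.85 CPM in IR+GFP. B cell genes were near 0: their summed level was 0.666 to 0.672 CPM in IR+Gli1, against 0.123 to 0.128 CPM in IR+GFP, and Pax5 had 0 reads in all libraries. Cd22 was the 1 B cell gene tested, and only through the samples labelled IR+Gli1, with 10 to 22 reads per library against 0 to 1 in IR+GFP; it passed edgeR's test and not that of DESeq2, and its call carries no weight.

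Of 7 T cell genes, 3 were tested and Lck rose, but 0 passed with the compared groups alone, against 1 of all genes tested. In the fit of all 5 groups, 8.33% of all genes passed as higher and 5.71% as lower. The 7 T cell genes summed to 2.81 to 6.48 CPM in the samples labelled IR+Gli1, against 0.596 to 1.29 CPM in IR+GFP. Of 7 lymph node genes, 2 were tested, both only through the samples labelled IR+Gli1. Both passed as higher there, but 0 passed with limma-voom. With the compared groups alone 0 passed too, against 1 of all genes tested. Cxcl13 had 32, 22 and 52 reads in the libraries labelled IR+Gli1, against 1 to 2 in IR+GFP. The lymph node marker Glycam1 had 0 reads in all libraries. The 9 submandibular gland genes summed to 10273 to 25284 CPM in IR+Gli1, against 59926 to 64177 CPM in IR+GFP; 3 of them fell, among them Bhlha15 and Egf, and Krt5 rose. All 5 tested sublingual gland genes had log2 fold changes below 0 (median -6.78), of which Gal3st3 passed; DESeq2 called 4 as lower. Their list summed to 2.504 to 2.73 CPM in IR+Gli1, against 6.71 to 189 CPM in IR+GFP, where the combined sample held the higher value. The part of these cell markers in the class II levels was not tested.

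IR+Shh differed from IR+Gli1 in the opposite direction to the contrast above, which shares the samples labelled IR+Gli1 and is no separate evidence of their level. All 7 log2 fold changes of IR+Shh against IR+Gli1 were below 0, with a median of -0.89 against -0.019 over all genes, and 2 of the 7 passed as lower. Of all genes tested, 7.75% passed, 4.98% as lower. H2-DMb1 fell by 1.41 ± 0.25 and H2-Ab1 by 1.16 ± 0.25 on the log2 scale (SE; edgeR quasi-likelihood test, Benjamini-Hochberg adjusted p = 0.0171 and 0.0349). Cd74, at -1.07 (95% interval -1.72 to -0.43), and H2-DMa, at -0.89 (-1.60 to -0.19), did not pass (edgeR quasi-likelihood test, Benjamini-Hochberg adjusted p = 0.0569 and 0.112). Ciita stood at -0.73 (95% interval -1.56 to 0.10), H2-Aa at -0.61 (-1.26 to 0.045) and H2-Eb1 at -0.093 (-0.63 to 0.45), and none of these passed. Both IR+Shh samples lay below both samples labelled IR+Gli1 for 5 of the 7 members, as they did for 29.8% of all genes. With the compared groups fitted alone, 0 members passed, and over all genes 1 passed as higher and 8 as lower. Leaving out a sample of either group leaves 1 in that group. The median log2 fold change of the members was then -0.52 without IR+Gli1 1 and 2 and -1.16 without IR+Gli1 3. It was -0.69 without IR+Shh 1 and 3 and -1.20 without IR+Shh 2. Without TMM factors 6 members passed as lower, as did 56.1% of all genes.

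Genes of several other lists were lower in IR+Shh than in IR+Gli1 as well, while 0 of the promoter factors passed (median log2 fold change 0.0059). For the counts that follow, the shares over all genes tested were 4.98% lower and 7.75% in either direction. On the interferon gamma route 4 of 7 genes fell and 0 rose, among them Irf1 by 1.79, Ifngr2 by 1.09 and Ifngr1 by 0.74 on the log2 scale. In endosomal processing 5 of 6 genes fell, among them Lgmn by 1.89 and Ctss by 1.22 on the log2 scale. In costimulation and turnover only Cd40 and Lag3 passed, as lower, and both were tested only through the samples labelled IR+Gli1. Of the pan-leukocyte genes 4 of 6 fell, and their summed level was 58.3 to 58.9 CPM in IR+Shh, against 110.1 to 206 CPM in IR+Gli1. Of 10 macrophage genes 4 fell, including C1qb, C1qc and Cd68, and Mrc1, a mannose receptor of tissue macrophages, rose by 1.02. Itgax fell as well, and Cd209a, with 2 to 9 reads per IR+Shh library, passed as higher. With the compared groups fitted alone, 0 genes of these lists passed, and over all genes 1 passed as higher and 8 as lower. Leaving out an IR+Shh sample leaves 1 in that group. Without IR+Shh 1 and 3, median log2 fold changes were -0.95 (interferon gamma route), -1.06 (endosomal processing) and -1.67 (pan-leukocyte). Without IR+Shh 2 they were -1.23, -0.91 and -1.65. The part of the listed genes in the class II levels was not tested.

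No class II gene passed between IR+Shh and IR+GFP. By edgeR's quasi-likelihood test, 0 of the 7 members and 0% of all genes passed; at an unadjusted p under 0.05 it was 0 members and 6.1% of all genes. DESeq2 and limma-voom passed 0 members too, while DESeq2 called 22 genes as higher and 12 as lower. The log2 fold changes of H2-Aa, H2-Ab1 and H2-Eb1 were 0.10, 0.13 and 0.12, with 95% intervals of -0.55 to 0.76, -0.46 to 0.72 and -0.43 to 0.66. Those of Cd74 and H2-DMb1 were -0.045 (-0.69 to 0.60) and 0.24 (-0.34 to 0.82). Cd74 was the 1 member below 0, and it turned to 0.10 without TMM factors. H2-DMa had the highest value, 0.64 (95% interval -0.10 to 1.39), and was the 1 member whose IR+Shh samples both lay above IR+GFP, as did those of 21.7% of all genes. Ciita, at 0.30 (-0.58 to 1.18), had the widest interval, and rises of 2-fold are within the intervals of H2-DMa and Ciita.

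The GFP transfer by itself gave no call. In IR+GFP against IR, 0 of the 7 members and 0% of all genes passed edgeR's quasi-likelihood test, and at an unadjusted p under 0.05 it was 0 members and 2.08% of all genes. DESeq2 and limma-voom passed 0 members as well, and DESeq2 called 8 genes as higher. Ciita was the 1 member whose IR+GFP samples both lay above IR, as did those of 16.8% of all genes. The log2 fold changes ran from -0.20 for H2-DMa (95% interval -0.96 to 0.56) to 0.48 for Cd74 (-0.17 to 1.12). H2-Aa, H2-Ab1, H2-Eb1 and H2-DMb1 stood at 0.23, 0.26, 0.16 and 0.20, and all 4 turned below 0 without IR+GFP 3, to between -0.10 and -0.021. IR+GFP 3 was the higher IR+GFP sample for all 7 members, and 8.22% of its reads had several alignments, against 2.98% to 3.04% in the other IR+GFP libraries. In IR+Gli1 3 this share was 7.53%, against 4.68% to 4.79% in the other IR+Gli1 libraries. IR+GFP 3 and IR+Gli1 3 had the highest shares of the series and are left out together in 1 alternative below. The part of these shares in the levels was not tested.

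After irradiation alone no class II gene passed. In IR against NT, 0 of the 7 members passed edgeR's quasi-likelihood test, as did 0.685% of all genes; DESeq2 and limma-voom passed 0 members too. All 7 log2 fold changes were below 0, with a median of -0.57 against -0.023 over all genes. H2-Ab1 and H2-Aa stood at -0.72 each, with 95% intervals of -1.31 to -0.14 and -1.37 to -0.063, and H2-Eb1 at -0.65 (-1.19 to -0.11). These 3 genes had an unadjusted p under 0.05, as had 17.5% of all genes. H2-DMb1 and Cd74 stood at -0.57 each (-1.15 to 0.0031 and -1.21 to 0.074), H2-DMa at -0.41 (-1.14 to 0.32) and Ciita at -0.18 (-1.07 to 0.70). Both IR samples lay below both NT samples for 5 of the 7 members, as they did for 27.3% of all genes.

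The NT samples stood far apart in part of the sublingual gland genes. The combined NT sample was the higher of the NT samples for all 7 members, and its 6 sublingual gland genes summed to 34414 CPM, against 3.92 CPM in NT 1. Dcpp1, Dcpp2, Dcpp3 and Muc19 made up this sum, while Gal3st3 was at 2.53 CPM in the combined sample and 2.46 CPM in NT 1, and Bpifb2 had 0 reads in both. Without it, Ciita and H2-DMa turned to 0.088 and 0.036. The pan-leukocyte genes had log2 fold changes below 0 in 6 of 6 cases in IR against NT (median -0.87), and 0 passed. Their summed level was 35.5 to 36.8 CPM in IR, against 44.5 to 70.1 CPM in NT. Macrophage genes summed to 122 CPM in both IR samples, against 146 to 175 CPM in NT. The part of these differences in the class II values was not tested.

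The genes outside the 7 whose level ran most like theirs were sought among 10609 protein-coding genes with a mean of at least 2 CPM. Likeness was Pearson's r with the mean log2 CPM of the 7 members over the 10 samples, which share their groups, so r is a description. The closest were Mfsd13a (r = 0.963), the ribosomal protein gene Rps27 (0.962), the fatty acid desaturase gene Fads2 (0.958), Gemin7 (0.957), Tor3a (0.955) and Nck2 (0.954). Tor3a was at 13.05 to 28.7 CPM in the samples labelled IR+Gli1, and its highest level elsewhere was 9.64 CPM in NT. Nck2 was at 19.3 to 24.0 CPM in IR+Gli1 and reached 20.3 CPM in NT, so its groups overlapped.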

How the data were processed

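The 15 libraries were prepared from total RNA with a TruSeq RNA kit, per the labels' protocols. The authors deposited raw counts of reads per Ensembl gene; per the submitters' processing notes, HTSeq 0.10.0, TopHat2 2.0.13, DESeq2 and Bowtie 0.12.2 were used with the builds mm10 and GRCm38. Strand mode, annotation release and DESeq2 version are not given in the sources used here, so reads of overlapping genes on opposite strands cannot be told apart. The 5 lines of each table that name no gene, among them reads with several alignments, held 6.98% to 13.9% of reads and were left out. GENCODE vM21 gave symbols for 96.0% of genes.

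Near-identical libraries (libraries 1 and 3 of IR+Shh, 2 and 3 of NT, and 1 and 2 of the other groups) were combined by the rounded mean of their counts. All 10 samples were fitted with edgeR 4.0.16 (R 4.3.3): filterByExpr, TMM, 1 mean per group, robust quasi-likelihood tests, 5 residual degrees of freedom, common biological coefficient of variation 0.19. Tests were two-sided, Benjamini-Hochberg adjusted over 14304 genes, with a threshold of 0.05. The code was tested on simulated data. The members and the 14 gene lists, which hold 100 symbols of which 98 were found, were chosen with earlier results of these data known.

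Named genes were the 7 members, up to 4 passing genes per list by smallest adjusted p, and the 6 most similar genes. Some of these genes are not reported here, but list counts include them. Replicate numbers were not taken to pair libraries: 3 of 30 same-numbered pairs deviated together with r over 0.1. Alternatives were DESeq2 size factors, upper-quartile and total-count scaling, no filter, 1 CPM in 2 samples, separate libraries with and without a replicate block, the deeper library of each pair, DESeq2 1.42.0, limma-voom (limma 3.58.1), the compared groups alone, and leaving out samples.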

Additional observations from a re-analysis of the deposited data

How the results depend on the processing

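Counts of the 7 members that passed changed as follows. For IR+Gli1 against IR+GFP, 4 became 7 with total-count scaling, 6 with no low-count filter, 6 with 15 separate libraries, 6 with the replicate block, 5 with DESeq2, 5 without IR+GFP 3 and IR+Gli1 3, 3 with limma-voom and 0 with the compared groups alone, and ranged from 0 to 5 when each sample was left out. For IR+Shh against IR+Gli1, 2 became 6 with total-count scaling, 5 with no low-count filter, 6 with 15 separate libraries, 6 with the replicate block, 3 with DESeq2, 0 with the compared groups alone and 4 without IR+GFP 3 and IR+Gli1 3, and ranged from 0 to 4 when each sample was left out. For IR against NT, 0 became 4 with no low-count filter, 5 with 15 separate libraries and 4 with the replicate block; separate libraries count near-identical pairs as independent. In the other comparisons every alternative gave 0. The cause of these changes was not tested, except that leaving out samples or groups leaves fewer degrees of freedom.

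Over all genes, calls ranged from 9 to 4154 for IR against NT (98 as reported), 0 to 214 for IR+GFP against IR (0), 1 to 9745 for IR+Gli1 against IR+GFP (2008), 0 to 538 for IR+Shh against IR+GFP (0) and 0 to 8112 for IR+Shh against IR+Gli1 (1109). With total-count scaling IR+Gli1 against IR+GFP gave 9656 higher and 89 lower calls, against 1191 and 817 with TMM, and IR+Shh against IR+Gli1 gave 85 higher and 8027 lower, against 396 and 713.

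Signs of log2 fold changes turned in 27 of 560 cases, of values that had not passed. In IR+GFP against IR, without IR+GFP 3 and IR+Gli1 3, H2-Aa was -0.022, H2-Ab1 -0.0465, H2-Eb1 -0.10 and H2-DMb1 -0.0565. Cd74 in IR+Shh against IR+GFP was 0.10 with total-count scaling, 0.0347 with 15 separate libraries, 0.0356 with the replicate block and 0.38 without IR+GFP 3 and IR+Gli1 3. When each sample was left out, ranges that crossed 0 were, in IR against NT, -0.42 to 0.0879 for Ciita and -0.76 to 0.0361 for H2-DMa. In IR+GFP against IR they were -0.0209 to 0.46 for H2-Aa, -0.0455 to 0.51 for H2-Ab1, -0.10 to 0.39 for H2-Eb1, -0.46 to 0.0447 for H2-DMa and -0.0558 to 0.43 for H2-DMb1. In IR+Shh against IR+GFP they were -0.12 to 0.36 for H2-Aa, -0.13 to 0.43 for H2-Ab1, -0.11 to 0.38 for H2-Eb1, -0.37 to 0.38 for Cd74 and -0.22 to 0.67 for Ciita. H2-Eb1 ran from -0.0349 to 0.47 in IR+Gli1 against IR+GFP and from -0.28 to 0.15 in IR+Shh against IR+Gli1. Depth limits Ciita most, with 20 to 207 reads per sample.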

Other observations

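H2-Oa, the alpha chain of H2-O, had its lowest counts in IR+Shh, with 5, 13 and 3 reads in libraries 1, 2 and 3, against 25, 16 and 16 reads in those of IR+GFP. The log2 fold change was -1.48 and did not pass (edgeR quasi-likelihood test, Benjamini-Hochberg adjusted p = 0.806). Its levels in IR, at 32 to 50 reads per library, and in NT, at 26 to 49, were above those of both groups per total reads.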
